A study of Mus musculus with 8 samples.

Results

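The 10 genes described here, which carry the signal below interleukin-1 receptors, were followed in 8 mouse RNA-seq libraries from sorted brain macrophages. They are the adaptors Myd88 and Tirap, the kinases Irak4, Irak1, Irak2 and Map3k7, the ubiquitin ligase Traf6 and the inhibitors Irak3, Tollip and Sigirr. The members were chosen by name, with earlier results of these data known. Of these, 10 of 10 were found among the 23413 gene symbols of the deposited table. All 10 also passed the filter on low values (10 or more normalised counts in 2 or more libraries), as did 11415 genes in all.

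The study compared microglia that repopulate the brain after depletion, macrophages labelled as bone-marrow derived, and wild-type microglia. Repopulating microglia (3 libraries) and bone-marrow macrophages (3 libraries) carry the strain label DTRmg, and wild-type microglia (2 libraries) carry the strain label DTR. The labels spell out no alleles and give no age at collection. The same treatment text stands on every library, wild-type microglia included: tamoxifen (2 mg, subcutaneous) at postnatal day 12 and again at day 14, then 3 intraperitoneal injections of 500 ng diphtheria toxin. Strain and cell group therefore cannot be told apart in comparisons with wild-type microglia. Cells were taken from perfused brains by papain digestion, a Percoll gradient and cell sorting, and the sorting gate is not stated in the labels. The labels do not say whether libraries of 1 group came from separate mice, so the p-values measure the spread between these libraries, which may be technical.

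Libraries held 5918944 to 12476427 reads over genes. Repopulating replicate 3 stood apart from its group: over genes, its chi-square per degree of freedom was 58.2 and 61.2 against the other 2 repopulating libraries, which differed from each other by 11.1. Bone-marrow libraries differed from each other by 7.05 to 8.62, and the wild-type pair by 24.3. All 11 microglia markers were above 0 in all 3 groups, and their summed normalised count was 325153 to 384591 in repopulating microglia, 134897 to 146594 in bone-marrow macrophages and 488533 to 520615 in wild-type microglia. The sum of 10 neutrophil markers was 1660 to 5483 in repopulating microglia, 1414 to 1636 in bone-marrow macrophages and 26919 to 29003 in wild-type microglia. Of these markers 9 of 10 were called lower in either group against wild type, and none was at 0 in a whole group. Over all genes tested, 3.75% were called lower in repopulating microglia against wild type and 22.2% in bone-marrow macrophages against wild type. The sum of 6 monocyte markers was 356 to 775 in repopulating microglia, 1357 to 2100 in bone-marrow macrophages and 3641 to 5768 in wild-type microglia. The 11 markers of monocyte-derived macrophages summed to 6933 to 24700 in repopulating microglia, 66088 to 72010 in bone-marrow macrophages and 28740 to 33358 in wild-type microglia. Endothelial markers (6) summed to 239.9 to 609 in repopulating microglia, 80.7 to 96.1 in bone-marrow macrophages and 415 to 736 in wild-type microglia. Astrocyte markers (6) summed to 242 to 2140 in repopulating microglia, 70.5 to 106 in bone-marrow macrophages and 1072 to 6441 in wild-type microglia. The sums differed widely between the libraries of either microglia group. Of 5 tested astrocyte markers, 1 was called higher and 0 lower in repopulating against wild-type microglia, beside 8.61% of all genes called. Lymphocyte markers (9) summed to 63.5 to 199 in repopulating microglia, 132 to 188 in bone-marrow macrophages and 434 to 717 in wild-type microglia, with Cd3e and Cd3g at 0 in wild type. The part of these other cells in the results was not tested. In bulk samples such as these, fewer cells of a type and less RNA per cell cannot be told apart.

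Receptors of the interleukin-1 family and most Toll-like receptors share a cytoplasmic domain that gathers Myd88, with Tirap as a bridge at some Toll-like receptors. Myd88 recruits the kinase Irak4, which acts on Irak1 and Irak2, and these engage Traf6, whose ubiquitin chains bring in the kinase Map3k7 (also called TAK1) and through it the NF-kappaB and MAP kinase routes. Irak3, which lacks kinase activity, Tollip, a ubiquitin-binding adaptor, and Sigirr, a receptor with 1 immunoglobulin domain, restrain the same complex, and in microglia the route drives cytokine production.

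The start regions of Irak1, Map3k7, Myd88 and Irak2 are shown because these genes gave opposite directions in bone-marrow macrophages against wild-type microglia. Irak4 and Tollip were called in opposite directions there as well and are not printed. Each line holds the 120 bases before 1 annotated start, 5′ to 3′ on the gene's own strand, from RefSeq on GRCm38.p6. By the GENCODE annotation 23 of the bases shown for Myd88 and 10 of those for Map3k7 lie in exons of the same gene, and the whole Myd88 stretch lies within its annotated locus. For Irak1, 15 of the bases lie in Mir718, and for Irak2 none is exonic. RefSeq also lists another Irak1 start, which is not printed. Capitals mark the motifs searched on either strand: GGGCGG (an Sp1-type box), GGAAGT (an ETS-type core), GAAANNGAA (an interferon response type), TGACGTCA, CACGTG and the kappaB motif.
Irak1, chrX:74023922-74024041, minus strand: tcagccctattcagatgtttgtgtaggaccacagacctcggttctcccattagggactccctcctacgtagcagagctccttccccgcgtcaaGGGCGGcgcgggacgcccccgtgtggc
Map3k7, chr4:31963987-31964106, plus strand: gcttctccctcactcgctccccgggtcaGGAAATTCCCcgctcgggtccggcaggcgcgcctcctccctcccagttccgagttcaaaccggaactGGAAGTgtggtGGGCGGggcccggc
Myd88, chr9:119340019-119340138, minus strand: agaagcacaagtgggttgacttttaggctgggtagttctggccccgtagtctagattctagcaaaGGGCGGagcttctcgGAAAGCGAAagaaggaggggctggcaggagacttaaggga
Irak2, chr6:113638347-113638466, plus strand: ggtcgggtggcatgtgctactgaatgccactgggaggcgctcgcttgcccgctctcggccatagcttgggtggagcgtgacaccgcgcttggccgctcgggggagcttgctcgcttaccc
Within 250 bases before the start, Irak1, Map3k7 and Myd88 held GGGCGG, which 32.7% of the 32851 starts in the table held. The box was not particular to them: Irak4, Traf6 and Tollip held it too, as did Irak3 and Tirap before 1 of their 2 starts each. Myd88 held GAAANNGAA 40 to 32 bases before its start (7.13% of starts), and Map3k7 held a kappaB match 92 to 83 bases before its start (3.90% of starts). Irak3 also held GAAANNGAA, before 1 of its starts. Irak1 and Map3k7 held GGAAGT (19.7% of starts), the Irak1 match lying outside the printed stretch. Irak2 held none of these letters in its window. Of the 10 members, 9 had an entry in the table. These matches are descriptions of sequence, and the expression data do not show what binds there.

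Levels between genes were compared per kilobase of merged exons (GENCODE M21, GRCm38), since longer transcripts yield more reads. Myd88 was the highest of the 10 in every group, with a mean of 258.6 normalised counts per kb in repopulating microglia, 201.2 in bone-marrow macrophages and 350.0 in wild-type microglia. Its level stood at or above the 83.7th percentile in every library, among the 10757 tested genes with an annotated exon length. Tollip averaged 143.1 normalised counts per kb in repopulating microglia, 133.1 in bone-marrow macrophages and 177.7 in wild-type microglia. The lowest members were inhibitors. Irak3 averaged 10.02 normalised counts per kb in repopulating microglia, 18.8 in bone-marrow macrophages and 12.0 in wild-type microglia. Sigirr averaged 5.52 in repopulating microglia, 13.1 in bone-marrow macrophages and 5.70 in wild-type microglia on the same scale.

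The order of levels per kb differed between groups in its upper part alone. In repopulating microglia it ran Myd88, Tollip, Irak1, Irak2, Map3k7, Irak4, Traf6, Tirap, Irak3, Sigirr, and the ranges over libraries overlapped between Tollip and Irak1 and between Irak1 and Irak2. In bone-marrow macrophages Irak1 stood before Tollip and Map3k7 before Irak2, and in each of these pairs the ranges overlapped. In wild-type microglia Irak2 stood before Irak1, with means of 144.4 and 76.5 normalised counts per kb, and no 2 neighbours overlapped. From Irak4 down the order was the same in the 3 groups. Dividing by the longest transcript instead of all exons exchanged Irak1 and Irak2 in repopulating microglia and returned both overlapping pairs of bone-marrow macrophages to the opposite order.

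**Figure D1:**
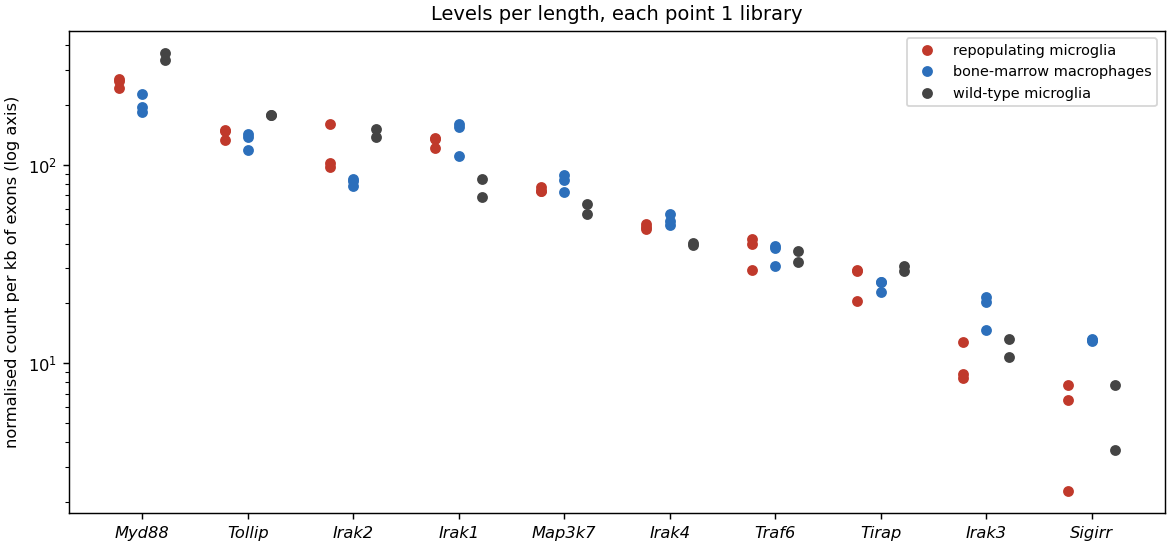
Normalised counts per kb of merged exons for the 10 genes (log axis), each point 1 library, with repopulating microglia (3), bone-marrow macrophages (3) and wild-type microglia (2) from left to right. Myd88 is the highest gene in each group, Irak3 and Sigirr are the lowest, and Irak1 and Irak2 exchange places between wild-type microglia and bone-marrow macrophages.

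Myd88, the adaptor on which the complex is built, was lowest in bone-marrow macrophages and highest in wild-type microglia. It had 693, 629 and 676 normalised counts in repopulating microglia, 499.5, 473 and 582 in bone-marrow macrophages, and 937 and 866 in wild-type microglia. No 2 groups overlapped, and repopulating microglia lay between the others. The fall in bone-marrow macrophages against wild-type microglia was a log2 fold change of -0.80 ± 0.14 (SE; limma, Benjamini-Hochberg adjusted p = 0.00193) and remained past 0.05 in 23 of 23 alternative settings. Repopulating microglia gave -0.44 ± 0.14 against wild-type microglia, with an adjusted p of 0.0841 and a 95% interval of -0.75 to -0.13. Of 23 alternatives 4 called this fall, among them the fit without repopulating replicate 3 (limma adjusted p = 0.0253). The others were equal library totals (limma, 0.0436), library weights (limma, 0.0356) and DESeq2 (0.0385). Against bone-marrow macrophages Myd88 was higher in repopulating microglia by 0.37 ± 0.12 on the log2 scale, with an adjusted p of 0.0499 that only just passed and that 16 of 23 alternatives ended. With library totals set equal that difference was 0.11 (adjusted p = 0.504). It was also lost without repopulating replicate 1 or 2, bone-marrow replicate 1 or 2, or either wild-type library, with adjusted p from 0.0551 to 0.170. In the exon annotation 11.3% of Myd88's exon bases lie under Acaa1a, a gene on the other strand with 372 normalised counts on average, and the kit does not mark strand.

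Tirap, the bridging adaptor, had 145, 102 and 144 normalised counts in repopulating microglia, 126, 112 and 127 in bone-marrow macrophages, and 143 and 153 in wild-type microglia. Wild-type microglia lay above bone-marrow macrophages without overlap, and repopulating microglia overlapped both. No comparison passed the threshold for Tirap. Its log2 difference was -0.20 ± 0.20 in repopulating against wild-type microglia (limma adjusted p = 0.553), -0.28 ± 0.20 in bone-marrow macrophages against wild type (0.283) and 0.08 between repopulating microglia and bone-marrow macrophages (0.780). The antisense gene Gm39318 covers 9.05% of Tirap's exon bases.

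Irak4, the first kinase of the complex, was 252, 242 and 237 normalised counts in repopulating microglia, 262, 283 and 250 in bone-marrow macrophages, and 202 and 198 in wild-type microglia. Every repopulating and bone-marrow library lay above both wild-type libraries, and the first 2 groups overlapped. Irak4 rose in bone-marrow macrophages against wild-type microglia by 0.40 ± 0.14 on the log2 scale (limma adjusted p = 0.0415). In repopulating microglia the difference from wild type was 0.28 ± 0.14, with an adjusted p of 0.226 and a 95% interval of -0.03 to 0.59. The bone-marrow call was kept in 14 of 23 alternatives. It was lost without repopulating replicate 1 (adjusted p = 0.0566) and without any bone-marrow or wild-type library in turn (0.0693 to 0.159). Twf1, on the other strand, covers 7.87% of Irak4's exon bases, with 454 normalised counts on average.

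Irak1, the kinase that passes the signal to Traf6, was the only member called higher than wild type in both other groups. Irak4 and Map3k7 also lay above wild type in every library of both groups, but were called in bone-marrow macrophages alone. It had 570, 641 and 632 normalised counts in repopulating microglia, 519, 757 and 731 in bone-marrow macrophages, and 324 and 398 in wild-type microglia. Wild-type microglia lay below all 6 other libraries, which overlapped between their groups. Irak1 averaged 614 ± 38.8 in repopulating microglia (SD, n = 3) and 361 ± 52.2 in wild-type microglia (SD, n = 2), a log2 difference of 0.77 ± 0.19 (SE; limma adjusted p = 0.0410). The rise in bone-marrow macrophages was 0.88 ± 0.19, with a mean of 669 ± 130 (SD, n = 3) and an adjusted p of 0.00612. Between repopulating microglia and bone-marrow macrophages the difference was -0.11 ± 0.17, with an adjusted p of 0.676.

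The 2 Irak1 calls were not equally stable. With library totals set equal the call in repopulating against wild-type microglia was lost (limma adjusted p = 0.0690). It was also lost with quantile normalisation (0.0534). The bone-marrow call was kept in 22 of 23 alternatives and was lost without wild-type replicate 1, with an adjusted p of 0.0655 there. The repopulating call was kept in 12 of 23, its adjusted p running from 0.00777 to 0.298 over the alternatives and its log2 difference from 0.62 to 0.92. Leaving out repopulating replicate 1 or 2, bone-marrow replicate 2 or 3, or either wild-type library ended it, with adjusted p from 0.0652 to 0.298, and without repopulating replicate 3 it was kept. Irak1 lies on chromosome X, at 74013914 to 74023918, and the libraries differ in Y-linked reads: the summed Y-linked normalised count was 1.89, 1086 and 274 in repopulating microglia, 799, 1.06 and 0 in bone-marrow macrophages, and 0 in either wild-type library. A covariate was formed by summing log2(normalised count + 1) over the Y-linked genes. With it the Irak1 difference in repopulating against wild-type microglia was 0.90 (limma adjusted p = 0.108).

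Irak2, the other kinase that engages Traf6, was called in the opposite direction to Irak1 in bone-marrow macrophages against wild-type microglia. It had 449, 429 and 704 normalised counts in repopulating microglia, 364, 345 and 372 in bone-marrow macrophages, and 670 and 604 in wild-type microglia. Bone-marrow macrophages lay below every other library, while repopulating replicate 3 was the highest of all 8 and the other 2 repopulating libraries lay below wild type. Irak2 fell in bone-marrow macrophages against wild-type microglia by 0.82 on the log2 scale (SE 0.21; limma adjusted p = 0.0135). This call was kept in 21 of 23 alternatives and lost without wild-type replicate 1 (adjusted p = 0.0965) or wild-type replicate 2 (0.0546). In repopulating against wild-type microglia the difference was -0.31 ± 0.21, with an adjusted p of 0.383, and without repopulating replicate 3 it was -0.53, with an adjusted p of 0.00713. In repopulating microglia against bone-marrow macrophages it was 0.51 ± 0.19, with an adjusted p of 0.0706, and without repopulating replicate 2 it was 0.64 (adjusted p = 0.0374).

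**Figure D2:**
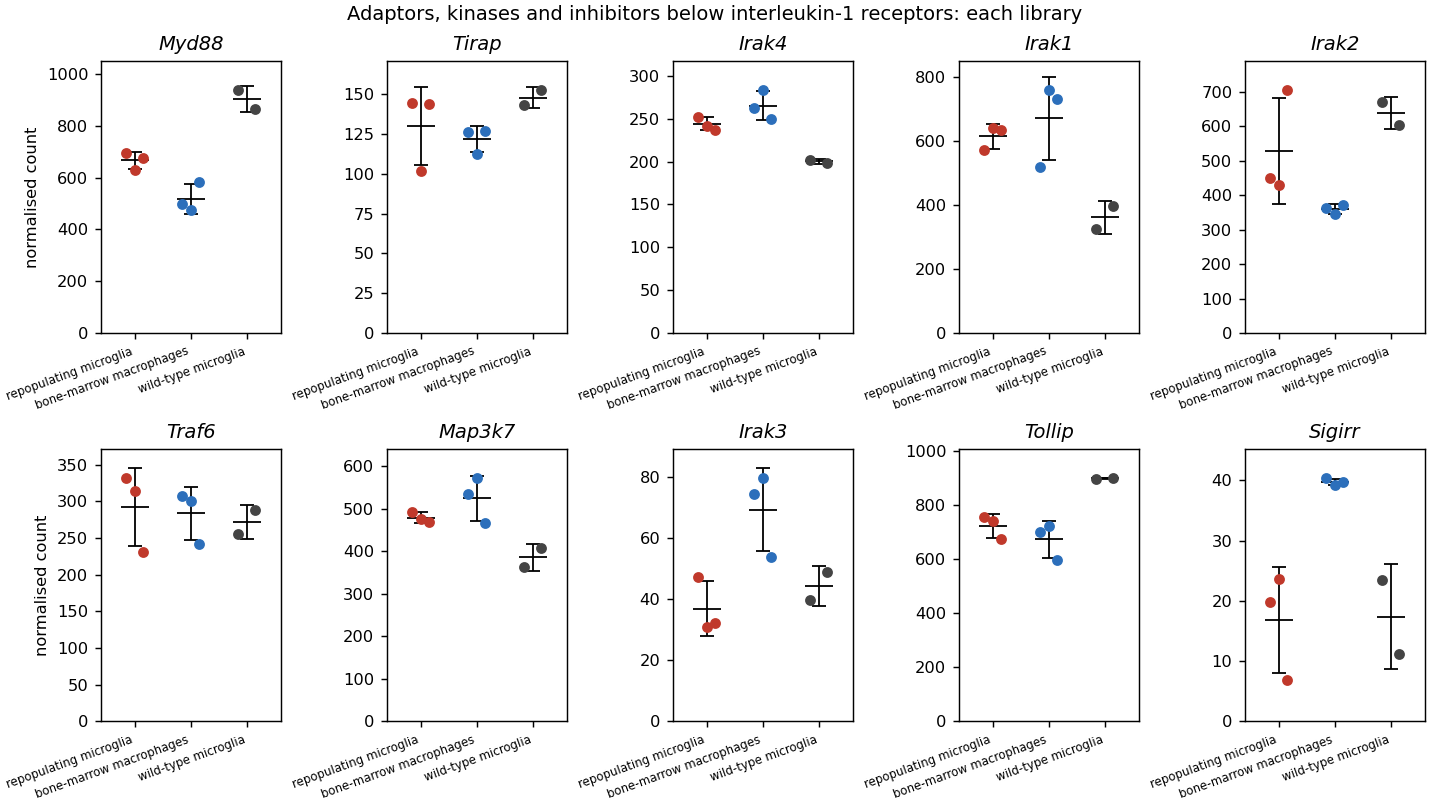
Normalised counts of the 10 genes in each library, by role from the adaptors to the inhibitors, with repopulating microglia, bone-marrow macrophages and wild-type microglia from left to right. Points are libraries, and the bar with whiskers is the mean ± SD (n = 3, 3 and 2). Irak1 is lowest and Myd88 and Tollip are highest in wild-type microglia, Irak2 is lowest in bone-marrow macrophages, and repopulating replicate 3 is the high Irak2 point.

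Because the 4 Irak genes share 1 complex, their levels per kb were also expressed as shares of their sum. Irak1 made up 42.3%, 46.9% and 38.4% of that sum in repopulating microglia, 41.6%, 50.7% and 51.0% in bone-marrow macrophages, and 25.3% and 30.8% in wild-type microglia. Irak2 made up 35.6%, 33.6% and 45.6% in repopulating microglia, 31.1%, 24.7% and 27.8% in bone-marrow macrophages, and 55.9% and 49.97% in wild-type microglia. Irak2 was thus the leading Irak transcript in both wild-type libraries and in repopulating replicate 3, and Irak1 in the other 5 libraries. The ratio of Irak1 to Irak2 per kb was 0.841 to 1.40 in repopulating microglia, 1.34 to 2.06 in bone-marrow macrophages and 0.452 to 0.616 in wild-type microglia. The sum of the 4 per kb was 308 ± 35.8 in repopulating microglia, 295 ± 26.9 in bone-marrow macrophages and 273 ± 1.75 in wild-type microglia (SD, n = 3, 3 and 2). Myd88 per kb was 5.06 to 5.55 times the Irak4 level in repopulating microglia, 3.26 to 4.55 times in bone-marrow macrophages and 8.52 to 9.04 times in wild-type microglia, with no overlap between groups. These shares and ratios are descriptions and were given no test.

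**Figure D3:**
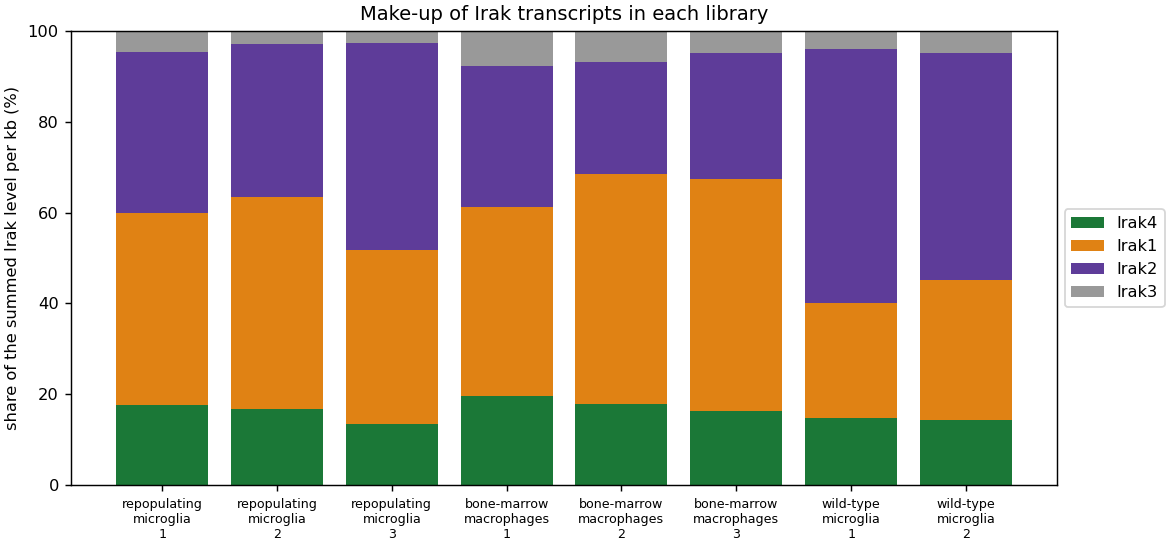
Share of the summed Irak level per kb held by Irak4, Irak1, Irak2 and Irak3 in each of the 8 libraries, in percent. Irak1 holds 38.4% to 51.0% in the repopulating and bone-marrow libraries and 25.3% and 30.8% in the wild-type libraries, while Irak2 holds 49.97% or more in wild type alone.

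Traf6, the ubiquitin ligase that links the Irak kinases to Map3k7, had 332, 314 and 232 normalised counts in repopulating microglia, 308, 300.1 and 242 in bone-marrow macrophages, and 255 and 289 in wild-type microglia. All 3 groups overlapped. Its log2 differences were 0.09 ± 0.20 in repopulating against wild-type microglia, 0.05 ± 0.20 when bone-marrow macrophages were set against wild type, and 0.04 in repopulating microglia against bone-marrow macrophages. Adjusted p ran from 0.802 to 0.902 (limma), and the sign of each difference changed with the scaling or the libraries used.

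Map3k7, the kinase that Traf6 brings in, had 493, 475 and 470 normalised counts in repopulating microglia, 534, 572 and 467 in bone-marrow macrophages, and 363 and 408 in wild-type microglia. Wild-type microglia lay below the other 6 libraries, as for Irak4 and Irak1. Map3k7 rose in bone-marrow macrophages against wild-type microglia by 0.44 ± 0.14 on the log2 scale (limma adjusted p = 0.0303). The call was kept in 18 of 23 alternatives and was lost without bone-marrow replicate 1 or 2, without either wild-type library (adjusted p 0.0719 to 0.188 over these 4) and with the Y-linked covariate (0.0740). Repopulating microglia differed from wild type by 0.32 ± 0.14, with an adjusted p of 0.187. The difference of repopulating microglia from bone-marrow macrophages was -0.12 (adjusted p = 0.488).

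Irak3, the inhibitory Irak protein, had 47.2, 31.0 and 32.3 normalised counts in repopulating microglia, 74.4, 79.5 and 53.8 in bone-marrow macrophages, and 39.5 and 48.8 in wild-type microglia. Bone-marrow macrophages lay above every other library, and the microglia groups overlapped. Irak3 was lower in repopulating microglia than in bone-marrow macrophages by a log2 difference of -0.90 ± 0.26 (limma adjusted p = 0.0273). Of 23 alternatives 18 kept it. It was lost without repopulating replicate 2 (adjusted p = 0.0637), bone-marrow replicate 1 (0.107) or bone-marrow replicate 2 (0.103). In bone-marrow macrophages against wild-type microglia the difference was 0.63 ± 0.29, with an adjusted p of 0.106, and in repopulating against wild-type microglia it was -0.27 ± 0.29, with an adjusted p of 0.570. These values rest on 21 to 131 reads per library. Tmbim4, on the other strand with 622 normalised counts on average, covers 5.22% of Irak3's exon bases.

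Tollip, the adaptor that restrains Irak1 at rest, had 756, 742 and 674 normalised counts in repopulating microglia, 700, 723 and 596 in bone-marrow macrophages, and 899 and 900 in wild-type microglia. Wild-type microglia lay above all 6 other libraries, as for Myd88. Tollip fell in bone-marrow macrophages against wild-type microglia by 0.42 on the log2 scale (SE 0.13; limma adjusted p = 0.0317). This was the least stable call of that comparison, kept in 12 of 23 alternatives. It was lost without bone-marrow replicate 1 (0.0718), bone-marrow replicate 3 (0.104) or either wild-type library (0.130 and 0.134), and when library totals were set equal (0.106). For repopulating against wild-type microglia the Tollip difference was -0.31 ± 0.13, with an adjusted p of 0.178.

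Sigirr, the inhibitory receptor, had 19.8, 23.6 and 6.91 normalised counts in repopulating microglia, 40.3, 39.2 and 39.7 in bone-marrow macrophages, and 23.5 and 11.2 in wild-type microglia. Bone-marrow macrophages lay above every other library, as for Irak3, and the microglia groups overlapped. The counts rest on 6 to 71 reads per library. The log2 difference was -1.35 ± 0.46 in repopulating microglia against bone-marrow macrophages (95% interval -2.40 to -0.31; limma adjusted p = 0.0538), and 1.24 ± 0.52 in bone-marrow macrophages against wild-type microglia (adjusted p = 0.0813). Neither passed the threshold. Of 22 alternatives in which Sigirr was tested, 9 called the first of these differences, among them TMM scaling, edgeR, DESeq2 and the fit without repopulating replicate 2 (adjusted p = 0.0304), and 5 called the second. Without repopulating replicate 3 both did, with log2 differences of -0.85 (adjusted p = 0.0497) and 1.24 (adjusted p = 0.00570). Between repopulating and wild-type microglia the difference was -0.12 ± 0.52, with an adjusted p of 0.907.

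Counted together, 1 of 10 members was called in repopulating against wild-type microglia: Irak1, higher. Over all genes tested, 8.61% were called in that comparison, 4.86% higher and 3.75% lower. Of those calls 56.5% were higher, and 37.8% were with library totals set equal. With equal totals 1 member was called, Myd88, lower, and Irak1 was not. The groups of 5 members did not overlap (Irak1, Irak4, Map3k7, Myd88 and Tollip), and neither did those of 40.4% of all genes tested. The median log2 difference of the 10 was -0.16, against -0.02 over all genes, and the median size regardless of sign was 0.30, against 0.35 over all genes. Without wild-type replicate 1 or 2, no member was called, and without repopulating replicate 3 the members called were Irak1, Irak2 and Myd88, beside 26.2% of all genes.

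In bone-marrow macrophages against wild-type microglia 6 of 10 members were called. Irak1, Irak4 and Map3k7 were higher and Myd88, Irak2 and Tollip lower, where 43.5% of all genes tested were called, 21.3% higher and 22.2% lower. The higher share of all calls was 49.0%, and 59.2% with library totals set equal. For 9 members, all but Traf6, the 2 groups did not overlap, as was so for 75.8% of all genes tested. The median log2 difference of the 10 was 0.23, against -0.01 over all genes, and the median size regardless of sign was 0.53, against 0.60. Leaving out 1 library gave between 1 and 7 members called, the lowest count without wild-type replicate 1, when Myd88 was the member left.

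In repopulating microglia against bone-marrow macrophages 2 of 10 members were called, Myd88 higher and Irak3 lower. Over all genes 30.9% were called, 16.0% higher and 14.9% lower. The higher share of all calls was 51.8%, and 28.6% with library totals set equal. The groups of 4 members did not overlap (Irak2, Irak3, Myd88 and Sigirr), beside 46.0% of all genes tested. The median size of the log2 difference regardless of sign was 0.12 in the members, against 0.41 over all genes, and the signed medians were -0.04 and 0.00. Without bone-marrow replicate 1 or 2 no member was called. No member was called with a change of 2-fold or more in any comparison. The comparisons share libraries, so they are not independent of each other.

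**Figure D4:**
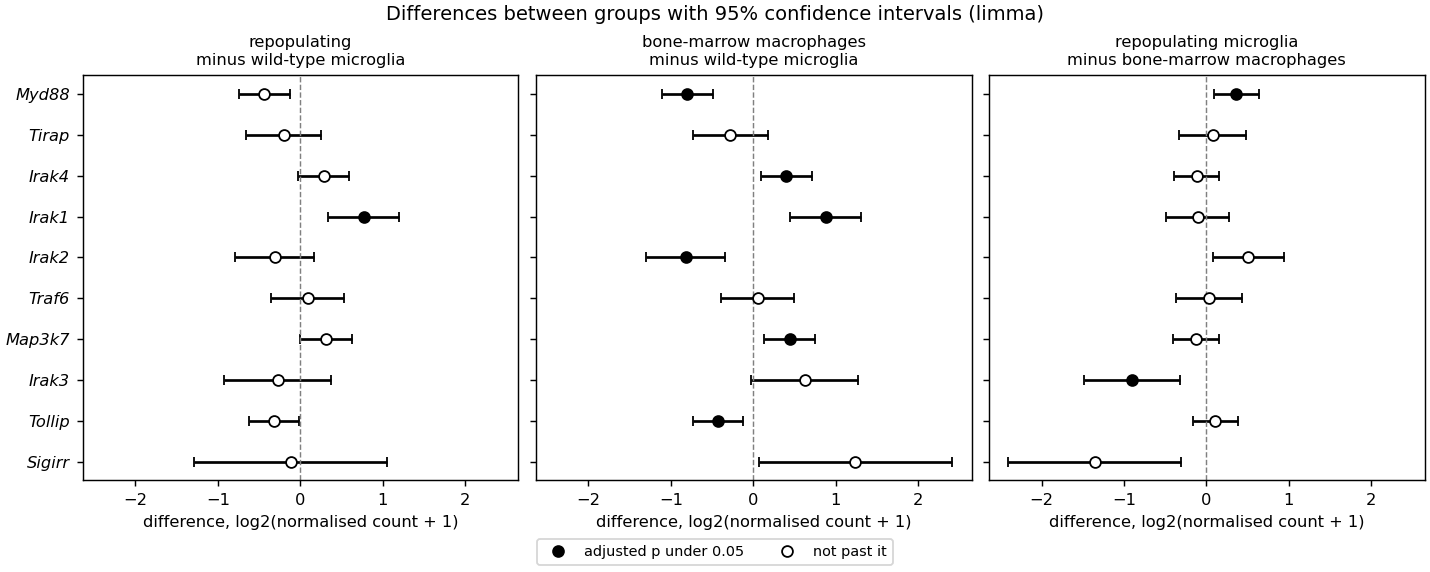
Log2 differences of the 10 genes, as repopulating minus wild-type microglia (left), bone-marrow macrophages minus wild-type microglia (middle), and repopulating microglia minus bone-marrow macrophages (right), with 95% confidence intervals from limma. Filled points passed an adjusted p of 0.05: Irak1 on the left, Irak1, Irak4, Map3k7, Myd88, Irak2 and Tollip in the middle, and Myd88 and Irak3 on the right.

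Over the 8 libraries, several members ran closely together or in opposite directions. Pearson's r of log2(normalised count + 1) was 0.95 between Irak4 and Map3k7, 0.84 between Irak1 and Irak4, and 0.85 between Irak2 and Myd88. Tollip and Tirap gave 0.38 and Irak2 and Tollip 0.54. Pearson's r was -0.95 between Irak4 and Myd88, -0.94 between Myd88 and Map3k7, -0.85 between Irak2 and Sigirr and -0.84 between Irak1 and Tollip. Irak1 and Irak2 gave -0.64. The 8 points share 3 groups, so group differences enter each of these values. Among well-expressed genes, the one most like Myd88 was Tsen34 (r = 0.99), and Trpm7, an ion channel with a kinase domain, was most like both Irak4 (0.98) and Map3k7 (0.98). Irak1 was followed most closely by Usp30 (0.98), Irak2 by Kansl2 (0.99), Irak3 by Usp37 (0.95) and Tollip by Ypel5 (0.98). Each of these most-like genes was the highest of 7316 genes searched (7317 for Irak3), so its r is high by selection. Shared control was not tested.

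**Figure D5:**
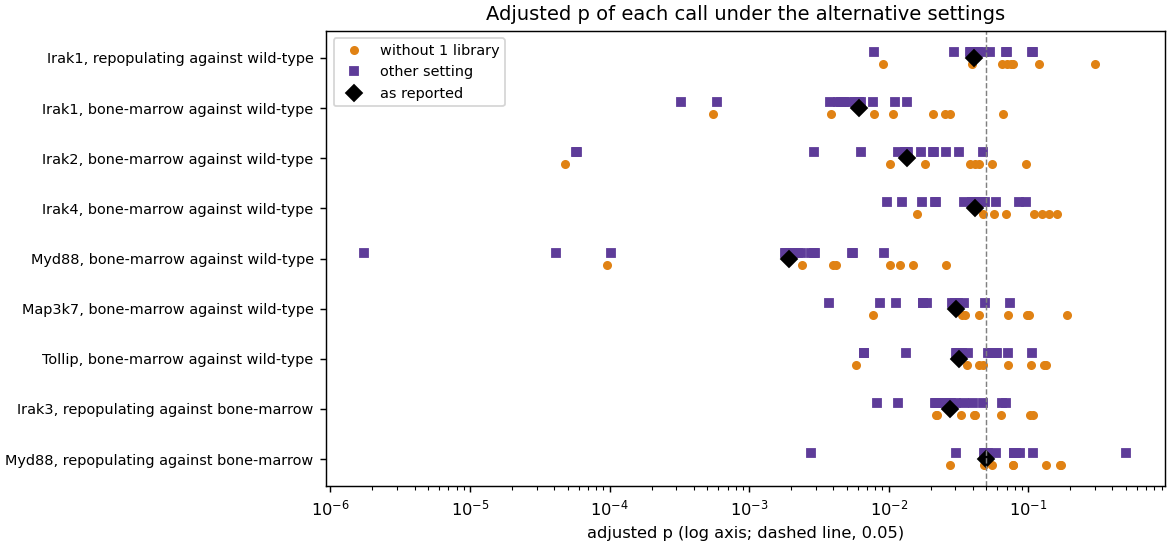
Adjusted p (log axis) of the 9 member calls as reported (diamonds), without 1 library (circles) and under other settings (squares), with 0.05 as a dashed line. The Myd88 call in bone-marrow macrophages against wild-type microglia stays left of the line in 23 of 23 alternatives, and the Myd88 call in repopulating microglia against bone-marrow macrophages does so in 7.

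The counts of the gene lists that follow stand beside these shares of all genes tested that were called: 8.61% in repopulating against wild-type microglia, 43.5% between bone-marrow macrophages and wild-type microglia, and 30.9% in repopulating microglia against bone-marrow macrophages. The lists were chosen with earlier results of these data known. A count above such a share is therefore a description and not a test of the list. Of 10 tested ligands and receptors of the family, upstream of the members, 5 were called higher in repopulating microglia than in bone-marrow macrophages and none lower (9 without repopulating replicate 3, 3 without bone-marrow replicate 2), with a median log2 difference of 0.88, against 0.00 over all genes. Over all genes 16.0% were called higher there. Il1a, which encodes a ligand of the interleukin-1 receptor, averaged 1832 ± 480 normalised counts in repopulating microglia and 398 ± 112 in bone-marrow macrophages (SD, n = 3 each), a log2 difference of 2.21 (limma adjusted p = 0.000283). Il1rl1, the receptor for the cytokine encoded by Il33, averaged 79.0 ± 14.0 in repopulating microglia and 29.4 ± 4.41 in bone-marrow macrophages, a log2 difference of 1.39 (adjusted p = 0.00171). Against wild-type microglia, 5 of the 10 were called lower in bone-marrow macrophages (2 without wild-type replicate 1, 3 without wild-type replicate 2), Il1rl1 and Il18 among them, and the median was -1.20. In repopulating against wild-type microglia 1 of the 10 was called, Il1r2, lower (0 lower without repopulating replicate 2 or any bone-marrow library, and 3 higher and 2 lower without repopulating replicate 3). Its adjusted p was 0.0543 to 0.0671 without repopulating replicate 2 or 1 of the bone-marrow libraries. Without either wild-type library Il1r2 did not pass the filter on low values and was not tested. Il1r2, a decoy receptor, had 1.48 to 9.44 normalised counts in repopulating microglia and 28.5 to 32.1 in wild-type microglia. Il18r1 and Il33 did not pass the filter on low values.

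Other adaptors and scaffolds numbered 9. In repopulating microglia against bone-marrow macrophages 3 were called higher (1 to 6 over the alternatives) and none lower, beside 30.9% of all genes called, with a median of 0.54. Unc93b1, a chaperone that carries Toll-like receptors to endosomes, averaged 17681 ± 1269 normalised counts in repopulating microglia and 10282 ± 591 in bone-marrow macrophages, a log2 difference of 0.78 (limma adjusted p = 0.00232). Pik3ap1, an adaptor between Toll-like receptors and phosphoinositide 3-kinase, was the 1 gene of the 9 called in repopulating against wild-type microglia, where 8.61% of all genes were, at 2203 ± 263 in repopulating microglia and 1311 ± 88.8 in wild-type microglia (adjusted p = 0.0162, and 0.0892 or 0.165 without 1 or the other wild-type library). Against wild-type microglia, 2 of 9 were called in bone-marrow macrophages, lower, beside 43.5% of all genes. The count was 0 without bone-marrow replicate 1 or 3 or either wild-type library, and 4 without repopulating replicate 3.

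The ubiquitin layer held 15 tested genes. Of these, in bone-marrow macrophages against wild-type microglia 3 were called higher and 3 lower, in repopulating against wild-type microglia 1 and 1, and in repopulating microglia against bone-marrow macrophages 2 and 0. Over all genes, 43.5% were called in the first of these comparisons, 8.61% in the second and 30.9% in the third. Its medians lay between -0.02 and 0.11. Peli1, which encodes a ubiquitin ligase that acts with the Irak proteins, averaged 457 ± 35.8 normalised counts in bone-marrow macrophages and 878 ± 41.8 in wild-type microglia, a log2 difference of -0.94 (limma adjusted p = 0.00120). Its relative Peli2 averaged 539 ± 101 in repopulating microglia and 260 ± 27.2 in bone-marrow macrophages, a log2 difference of 1.03 (adjusted p = 0.00166). None of 23 alternatives ended either call. The counts of the layer fell to 1 higher and 2 lower in bone-marrow macrophages against wild-type microglia without bone-marrow replicate 1 or either wild-type library, and those in repopulating against wild-type microglia to 0 without repopulating replicate 1 or any bone-marrow or wild-type library. Without repopulating replicate 3 repopulating against wild-type microglia had 3 higher and 2 lower.

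Among 19 tested genes of the IkappaB kinase and MAP kinase layer, 5 were called higher and 5 lower in bone-marrow macrophages against wild-type microglia, with 2 higher and 0 lower without wild-type replicate 1 and 3 higher and 0 lower without wild-type replicate 2. Over all genes 43.5% were called there. Leaving out 1 bone-marrow library left 2 higher and 1 to 4 lower, and leaving out repopulating replicate 1 left 3 and 4. In repopulating against wild-type microglia 1 was called, higher (0 without repopulating replicate 1 or any bone-marrow or wild-type library, 3 without repopulating replicate 3), and in repopulating microglia against bone-marrow macrophages 3 were higher and 3 lower, beside 30.9% of all genes called (4 higher and 7 lower without repopulating replicate 3, and 0 or 1 higher and 1 to 3 lower without any other library). Mapkapk3, a kinase activated by p38, passed in 23 of 23 alternatives in each comparison with bone-marrow macrophages. It averaged 233 ± 66.4 normalised counts in repopulating microglia, 1089 ± 97.8 in bone-marrow macrophages and 284 ± 48.3 in wild-type microglia. The log2 difference was -2.26 for repopulating microglia against bone-marrow macrophages (limma adjusted p = 0.000142) and 1.94 when bone-marrow macrophages were set against wild-type microglia (adjusted p = 0.000443). Mapk11 and Mapk12 did not pass the filter on low values. Mapk13, called lower in bone-marrow macrophages against wild-type microglia, did not pass it once either wild-type library was left out.

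Of 12 further inhibitors of the route, 4 were called higher and none lower in repopulating microglia against bone-marrow macrophages (7 without repopulating replicate 3, and 3 to 5 without any other library), beside 30.9% of all genes called, with a median of 0.37. Tnfaip3, which encodes an enzyme that edits ubiquitin chains on the complex, averaged 2079 ± 117 normalised counts in repopulating microglia and 733 ± 263 in bone-marrow macrophages, a log2 difference of 1.58 (limma adjusted p = 0.00396). Dusp1, a phosphatase of MAP kinases, averaged 10145.5 ± 2271 in repopulating microglia, 4165 ± 719 in bone-marrow macrophages and 18515 ± 4622 in wild-type microglia. Bone-marrow macrophages were lower than wild-type microglia for Dusp1 by a log2 difference of -2.14 (adjusted p = 0.000278), and 4 of the 12 inhibitors were called lower and 1 higher in that comparison, beside 43.5% of all genes called (6 lower without repopulating replicate 3, 2 lower without wild-type replicate 2, and none higher without bone-marrow replicate 2 or 3 or wild-type replicate 1). None was called in repopulating against wild-type microglia by limma at the adjusted threshold, while 4 had an unadjusted p under 0.05, edgeR called 0 and DESeq2 called 2.

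Genes that the route is known to induce numbered 20, all tested. In repopulating microglia against bone-marrow macrophages 12 were called higher and 1 lower (9 to 14 higher without 1 library), beside 16.0% of all genes higher and 14.9% lower, with a median of 0.92. Nfkbia, which encodes the inhibitor of NF-kappaB that the factor itself induces, averaged 5182 ± 1187 normalised counts in repopulating microglia and 1630 ± 552 in bone-marrow macrophages, a log2 difference of 1.70 (limma adjusted p = 0.00179). Set against wild-type microglia, repopulating microglia had 3 called, all higher, beside 8.61% of all genes called (9 without repopulating replicate 3, and 0 without either wild-type library). The cytokine gene Tnf averaged 1391 ± 617 in repopulating microglia and 324 ± 28.3 in wild-type microglia, a log2 difference of 2.01 (adjusted p = 0.0182), and leaving out 1 or the other wild-type library gave an adjusted p of 0.123 or 0.142. Set against wild type, bone-marrow macrophages had 2 higher and 7 lower, beside 43.5% of all genes called, and the median was -0.01. Without wild-type replicate 1 or 2 the lower calls were 3 and 4, and without bone-marrow replicate 2 or 3 no call was higher. In those 2 fits without a bone-marrow library Cxcl1, 1 of the 2 genes called higher, did not pass the filter on low values and was not tested. The 20 genes answer to many other routes as well, and their tie to the 10 members was not tested.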

How the data were processed

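RNA was measured with an unstranded TruSeq version 2 kit, per the labels' protocols. The submitters' processing notes list DESeq 1.14.0, HTSeq, Bowtie2 2.1.0.0 and TopHat2 2.0.10, with genome build mm10, but no annotation. The deposited unit is signal, meaning gene counts scaled by the authors with 1 factor for each library. This follows from the values, of which 100% were whole multiples of 1 read within a tolerance of 0.01. Columns were matched to samples by name and number, and the 3 columns named mono were taken as the bone-marrow macrophages by exclusion. No column was left unused.

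Values were tested as log2(normalised count + 1) with limma 3.58.1 in R 4.3.3, in 1 model over all 8 libraries with a variance trend and no covariate, on 11415 genes that reached 10 normalised counts in 2 or more libraries. A call is a two-sided Benjamini-Hochberg adjusted p under 0.05 over all tested genes of a comparison. The pseudocount understates changes of low genes. Reads recovered from the values (100% whole) were tested with edgeR 4.0.16 and DESeq2 1.42.0 as alternatives. The procedure was tested on simulated counts with 1 dispersion for all genes and no outlying library. That test does not bear on how stable the calls are in these libraries. All replicates were kept, since each pair differed beyond counting noise.

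The members and the gene lists were chosen with earlier results of these data known. Named list genes were drawn from the up to 4 with the smallest adjusted p in each list and comparison, and most-like genes from the 2 with the highest r among genes averaging at least 100 normalised counts. Reads carry no molecular identifiers. Sequences come from RefSeq on GRCm38.p6.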

Additional observations from a re-analysis of the deposited data

How the results depend on the processing

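All 23 alternatives were run for each comparison, and Sigirr was tested in 22 of them. The main count in repopulating against wild-type microglia was 983 genes and 1 member. Fitting these 2 groups alone gave 82 genes and 0 members, library weights 2807 and 3, a Y-linked covariate 171 and 0, and DESeq2 1625 and 2. Quantile normalisation and a fit without a variance trend each gave 0 members. Leaving out 1 library gave 67 genes (without wild-type replicate 1) to 2969 (without repopulating replicate 3) and 0 to 3 members. In bone-marrow macrophages against wild-type microglia (4960 genes, 6 members) the Y-linked covariate gave 3 members, and leaving out 1 library gave 2821 to 6992 genes and 1 to 7 members. In repopulating microglia against bone-marrow macrophages (3526 genes, 2 members) library weights gave 6409 genes and 4 members. There, equal totals gave 4 members (Irak3, Irak4, Map3k7 and Sigirr). DESeq2 also gave 4, but other ones (Irak2, Irak3, Myd88 and Sigirr). A pseudocount of 0.5, no filter, the 2 groups alone, no variance trend and robust variances each gave 1, Irak3. Quantile normalisation and the Y-linked covariate each gave 0. Leaving out 1 library gave 2212 to 5335 genes and 0 to 3 members. Without repopulating replicate 2 the members called were Irak2 and Sigirr, neither of them a main call. The weights were estimated with a warning that the tolerance was not reached. The causes were not tested.

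Setting library totals equal moved the median log2 difference of all genes by -0.11 in repopulating against wild-type microglia, by 0.14 in bone-marrow macrophages against wild type and by -0.25 in repopulating microglia against bone-marrow macrophages. Signs turned for 4 members, none of them called where it turned. For repopulating against wild-type microglia Traf6 was -0.020 with equal totals and -0.0094 to 0.25 without 1 library. Sigirr there was 0.12 with quantile normalisation, 0.26 with library weights and -0.62 to 0.39 without 1 library. Between bone-marrow macrophages and wild-type microglia Traf6 was -0.0069 with quantile normalisation and -0.034 to 0.16 without 1 library. In repopulating microglia against bone-marrow macrophages equal totals gave -0.22 for Traf6, -0.14 for Tollip and -0.17 for Tirap. Traf6 was also -0.015 there with TMM, -0.0079 with edgeR and -0.073 to 0.19 without 1 library, and Tirap was -0.0067 to 0.24 without 1 library.

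Deviations of same-numbered libraries from their group means correlated between -0.24 and 0.24, with mixed signs. With 2 or 3 libraries a group these deviations depend on each other, so they cannot show whether the libraries were paired. A replicate block gave 733 genes and 1 member in repopulating against wild-type microglia, 4811 and 5 in bone-marrow macrophages against wild type, and 3564 and 4 in repopulating microglia against bone-marrow macrophages. With the block Sigirr was 0.14 in repopulating against wild-type microglia. Depth limits Sigirr (6 to 71 reads per library) and Irak3 (21 to 131), and 2 wild-type libraries limit every comparison with them.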
